A study of Arabidopsis thaliana with 32 samples.

Results

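The comparison concerned the resting transcriptome of roots that lack either the strigolactone receptor or the F-box protein through which it signals. It covered the 1220 genes listed in both the d14 and the max2 table of the series, out of 3443 genes listed for any genotype. Those 1220 genes were 52.2% of the 2336 genes listed for d14 and 80.6% of the 1514 listed for max2. A gene was listed where the authors found a response to zaxinone in that genotype, so the set consists of zaxinone-responsive genes and is not a sample of the transcriptome. In the authors' deposited tables zaxinone raised 716 of them in both mutants, lowered 496 in both and moved 8 in opposite directions.

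The study sequenced polyadenylated RNA from Arabidopsis thaliana roots in 32 libraries, 4 for each of 8 groups. The groups compared here were d14 mock and max2 mock, each with 4 libraries, with Col-0 mock, the wild type, set beside them. All plants were 5 weeks old and grew in hydroponic medium, and the mock groups had received 1% acetone for 6 h. The d14 zaxinone and max2 zaxinone groups, which had 20 µM zaxinone in 1% acetone for the same time, were used to see which genotype differences appeared in libraries other than the mock ones; they are not independent of how the genes were listed, since listing required a zaxinone response. The labels name the mutants without their alleles. Whether the 4 libraries of a group are separate cultures is not given, and p-values reflect the spread among these libraries alone. D14 and MAX2 are listed in none of the tables, and the genotype labels were therefore not checked against the mutated genes.

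Strigolactones are carotenoid-derived hormones that restrain shoot branching and shape root architecture. D14 is an α/β-hydrolase that binds and cleaves the hormone. With the hormone bound, it joins MAX2, the F-box subunit of a ubiquitin ligase, which marks repressor proteins of the SMXL family for degradation. MAX2 also serves KAI2, the D14 paralog of karrikin responses. A d14 root therefore lacks the strigolactone branch, while a max2 root lacks both branches.

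Library totals were 52.3 to 73.9 M fragments in d14 mock and 47.9 to 64.1 M in max2 mock. The shared genes took 4.23 to 4.62% of the total in d14 mock and 4.5 to 5.6% in max2 mock. Libraries within a group differed well beyond counting error. The chi-square per degree of freedom was 20.9 to 45.3 among the d14 libraries and 29.6 to 169 among the max2 libraries. The 3 highest of these values all involved max2 mock replicate 1, which stood apart from the other max2 libraries and lay nearer to d14 for many genes named below. Replicate 4 also differed from max2 mock replicates 2 and 3, at 82.8 and 78.5, against 29.6 between replicates 2 and 3. Without max2 mock replicate 1, 287 genes were called in place of the 211 reported next, and without replicate 4, 180 were. Of the 43 root cell-type and shoot markers looked up, 2 were tested. SKOR, a potassium channel of the pericycle and stele, was lower in d14 than in max2. It had 63.1, 55.7, 64.7 and 53.5 FPKM in d14 mock and 100, 76.7, 88.0 and 93.6 FPKM in max2 mock (edgeR adjusted p = 0.0126). CASP5 of the endodermis ranged from 0.102 to 0.288 FPKM in d14 mock and from 0.105 to 0.421 FPKM in max2 mock (edgeR adjusted p = 0.782). The part of cell-type proportions in the results was not tested. In whole roots, fewer cells of a type and less RNA per cell cannot be told apart.

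Most tested genes had basal levels within 2-fold of each other in the 2 mutants. The authors' listing used these same mock libraries, so the shares given here hold for this selected set only. After 14 genes with under 10 counts over the 8 libraries were set aside, 1206 were tested with edgeR's quasi-likelihood test, scaled by library totals. For 775 of them (64.3%) the 95% confidence interval of the d14 over max2 difference lay within a 2-fold change in either direction. At an adjusted p under 0.05 the test called 211 genes (17.5%), of which 52 (4.31%) were higher and 159 (13.2%) were lower in d14. Of the called genes, 68 (5.64% of those tested) differed by 2-fold or more, and 82 (6.8%) were called and also bounded within 2-fold. A further 302 genes (25.0%) were neither called nor bounded, and for them the data settle neither a difference nor a likeness. Of these 75.8% averaged under 1 FPKM in both mutants, as did 29% of all tested genes. The bounded shares of gene sets given below are not adjusted for level. In 234 tested genes (19.4%) the 4 d14 values did not overlap the 4 max2 values, and 155 of these were called.

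The median log2 difference over the tested genes was -0.12, and the median absolute difference was 0.32. That shift is part of the split between higher and lower calls. Scaled by edgeR's TMM over the tested genes, which brings the median to -0.01, 78 genes were higher and 94 lower in d14. DESeq2 with its own size factors called 117 higher and 133 lower. The count was sensitive to single libraries in a group of 4. It was 42, 36, 107 and 119 without d14 mock replicates 1, 2, 3 and 4 in turn, and 86 and 41 without max2 mock replicates 2 and 3. The number bounded within 2-fold was steadier and stayed between 720 and 780 whichever library was left out. Across genes, log2 levels of d14 and max2 libraries correlated at Pearson's r of 0.965 to 0.985, against 0.986 to 0.993 among d14 libraries and 0.977 to 0.990 among max2 libraries. Genes are not independent replicates, so these values describe the libraries only.

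**Figure D1:**
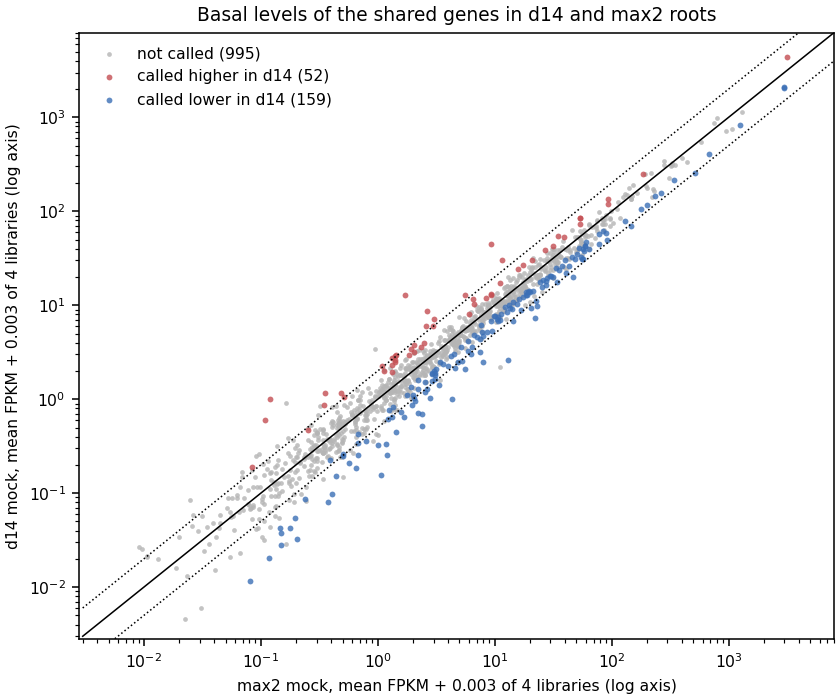
Mean FPKM of each tested gene in d14 mock roots (vertical, log axis) against max2 mock roots (horizontal, log axis), 4 libraries each, with 0.003 added. The solid line marks equal levels and the dotted lines a 2-fold difference; the 52 genes called higher in d14 lie above the line and the 159 called lower lie below it.

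With library totals, genes raised and genes lowered by zaxinone both held more lower than higher calls, as did all tested genes. These splits were not counted under the other scalings. Among the 702 tested genes that zaxinone raised in both mutants, 13 were higher and 92 lower in d14 mock, and 58.0% were bounded within 2-fold. Among the 496 that it lowered in both, 36 were higher and 66 lower, and 74.2% were bounded. The authors' directions rest on the same mock libraries, so these counts are a description. The 8 genes with opposite directions held 3 called higher and 1 called lower, with none bounded. AT4G10270, annotated as a wound-responsive family protein, had 60.1, 71.0, 10.9 and 35.4 FPKM in d14 mock and 9.98, 6.95, 6.39 and 14.2 FPKM in max2 mock. AT3G29970, a B12D family protein, had 30.9, 14.2, 0.712 and 6.18 FPKM in d14 mock and 3.19, 0.861, 0.218 and 2.55 FPKM in max2 mock. In both genes d14 mock replicate 3 was the lowest d14 library and fell among the max2 values.

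Genes of the abscisic acid and dehydration response held 5 of the lower calls, NCED3 of abscisic acid synthesis included. Abscisic acid is the hormone of water deficit, and in this list 4 of 17 tested genes (23.5%) were lower in d14 and 0 were higher, against 13.2% lower and 4.31% higher over all tested genes. The list median was -0.49, against -0.12 over all tested genes. The 4 were RD29A, KIN1, LTI30 and HB7, and 14 of the 17 had a negative difference. Under TMM scaling 3 of the 17 were called lower and 1 higher, against 94 lower and 78 higher of all 1206 tested genes. The members not called included ABF3, a transcription factor of the pathway, at 8.35, 9.14, 8.36 and 7.82 FPKM in d14 mock and 7.26, 4.84, 6.88 and 6.32 FPKM in max2 mock. PP2CA, a phosphatase that restrains the pathway, averaged 19.9 ± 1.3 FPKM in d14 mock and 22.1 ± 2.1 FPKM in max2 mock (SD, n = 4 each), and was among the 7 list genes (41.2%, against 64.3% of all tested genes) bounded within 2-fold.

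NCED3, the dioxygenase that commits carotenoid to abscisic acid synthesis under water deficit, was lower in d14 than in max2. It had 0.328, 0.196, 0.316 and 0.491 FPKM in d14 mock, against 1.09, 1.43, 1.17 and 0.965 FPKM in max2 mock. The 2 sets of libraries did not overlap, and max2 exceeded d14 by 3.46-fold (log2 difference -1.79 ± 0.26 SE, edgeR adjusted p = 0.00647). Col-0 mock had 0.633, 0.388, 0.279 and 0.341 FPKM. In a fit with Col-0, d14 did not differ from it by the test (log2 -0.30, edgeR adjusted p = 0.47) while max2 was above it (log2 1.49, edgeR adjusted p = 0.0014). The other 2 tested genes of abscisic acid metabolism, NCED2 and CYP707A2, averaged under 0.05 FPKM in both mutants and were not called. The median of this list, 0.68, therefore has the opposite sign to its only call. That call was 33.3% of the list, against 13.2% lower over all tested genes.

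LTI30, a dehydrin, had 44.6, 45.5, 50.7 and 59.4 FPKM in d14 mock and 91.9, 81.1, 107 and 82.9 FPKM in max2 mock (log2 difference -0.86 ± 0.13 SE, edgeR adjusted p = 0.0068). Col-0 mock lay between, at 57.1 to 70.2 FPKM. KIN1, a cold- and dehydration-induced protein, had 0.490, 0.323, 0.457 and 0.523 FPKM in d14 mock and 0.832, 0.870, 1.64 and 2.35 FPKM in max2 mock (log2 difference -1.66 ± 0.36 SE, edgeR adjusted p = 0.0179). KIN1 has a near-identical neighbour, so reads may have been split between the copies.

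RD29A, a widely used marker of the response, had 0.890, 0.919, 1.01 and 1.29 FPKM in d14 mock and 2.22, 1.1, 1.72 and 3.07 FPKM in max2 mock, with 1 max2 library inside the d14 range (edgeR adjusted p = 0.0386). HB7, a homeodomain protein induced by abscisic acid, had 11.8, 11.7, 12.3 and 10.5 FPKM in d14 mock and 15.4, 17.3, 16.9 and 15.7 FPKM in max2 mock, a smaller but non-overlapping difference (log2 -0.49 ± 0.11 SE, edgeR adjusted p = 0.0167). The calls of NCED3 and LTI30 held under each of the 10 settings and without any 1 library. Those of KIN1 and HB7 were lost without d14 mock replicate 1 or 2 or max2 mock replicate 3, and that of HB7 also with all 16 libraries in 1 fit. That of RD29A was lost without d14 mock replicate 1, 2 or 3 or max2 mock replicate 3 or 4, and under TMM scaling and limma.

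The 250 bases upstream of the annotated start are shown for 3 of these genes, because abscisic acid and dehydration responses are classically tied to short promoter elements. Capitals mark the core ACGTG of the abscisic acid response element and the core CCGAC of the dehydration-responsive element, each searched on both strands (CACGT and GTCGG on the other strand). The sequences are RefSeq TAIR10.1, read 5′ to 3′ on the gene's own strand. The files give no build, but the exon lengths behind their FPKM values equal those of this annotation for all 3443 listed genes.
RD29A, chr5:21240467-21240716, plus strand: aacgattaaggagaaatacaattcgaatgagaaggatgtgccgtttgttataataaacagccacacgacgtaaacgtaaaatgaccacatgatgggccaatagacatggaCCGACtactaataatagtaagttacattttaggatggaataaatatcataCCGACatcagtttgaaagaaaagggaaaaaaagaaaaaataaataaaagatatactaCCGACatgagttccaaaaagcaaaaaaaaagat
LTI30, chr3:18940393-18940642, plus strand: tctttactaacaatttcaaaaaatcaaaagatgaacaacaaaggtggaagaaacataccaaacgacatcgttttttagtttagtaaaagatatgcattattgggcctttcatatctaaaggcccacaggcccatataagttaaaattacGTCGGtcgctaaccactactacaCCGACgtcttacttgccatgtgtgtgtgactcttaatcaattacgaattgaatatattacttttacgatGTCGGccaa
KIN1, chr5:5209467-5209716, plus strand: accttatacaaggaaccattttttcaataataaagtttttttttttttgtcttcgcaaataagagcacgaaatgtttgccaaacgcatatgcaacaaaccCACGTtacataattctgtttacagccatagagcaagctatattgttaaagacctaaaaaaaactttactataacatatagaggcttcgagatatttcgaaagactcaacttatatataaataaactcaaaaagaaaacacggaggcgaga
The windows of RD29A and LTI30 each held 3 dehydration-responsive cores, and the window of KIN1 held 1 abscisic acid response core. Over all genes with a window, the shares holding each core were as follows, with no test of their differences. The core ACGTG was in 28.5% of the 158 upstream windows of genes called lower in d14, 26.9% of the 52 of genes called higher, 29.8% of the 982 of tested genes not called and 22.9% of those of all protein-coding genes. The core CCGAC was in 10.8%, 9.62%, 10.6% and 12% of the same sets.

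The stress regulators DREB2A, ZAT12 and CBF3, outside that list, were also lower in d14 than in max2, and each call depended on single libraries and on the setting. DREB2A, which binds the dehydration-responsive element, had 4.32, 3.73, 4.74 and 3.80 FPKM in d14 mock and 6.10, 6.14, 6.07 and 5.36 FPKM in max2 mock (edgeR adjusted p = 0.0264). ZAT12, a zinc-finger protein of general stress, had 13.5, 12.4, 13.9 and 15.1 FPKM in d14 mock and 16.4, 18.6, 20.0 and 18.6 FPKM in max2 mock (edgeR adjusted p = 0.0346). Neither gene overlapped between the mutants, but both calls were lost under TMM scaling, with all 16 libraries in 1 fit and without d14 mock replicate 1 or 2 or max2 mock replicate 2 or 3. DREB2A also lost its call without d14 mock replicate 4, and ZAT12 without d14 mock replicate 3 and with the replicate block. CBF3, a cold-response regulator, was barely detected, with 1, 1, 1 and 0 counts in d14 mock and 3, 6, 8 and 6 counts in max2 mock (edgeR adjusted p = 0.0264). Its call was lost with limma on log2(FPKM + 1) and without d14 mock replicate 1, 2 or 3 or max2 mock replicate 2 or 3. Its near-identical neighbours CBF1 and CBF2 were not called, and reads may have been split among the copies. In the early touch and general stress list 2 of 6 tested genes (33.3%, against 13.2%) were lower and 0 higher. In the heat shock and protein folding list DREB2A was the only call among 6 tested genes (16.7% lower, against 13.2%).

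Of 9 tested genes of salicylic acid and immunity, YLS9, WRKY18 and CYP71A12 were lower in d14. Those 3 were 33.3% of the list and 0 were higher, against 13.2% lower and 4.31% higher over all tested genes, and 5 (55.6%, against 64.3%) were bounded within 2-fold. YLS9, of the NDR1/HIN1-like family of pathogen response, had 1.06, 1.08, 1.72 and 1.82 FPKM in d14 mock and 2.7, 4.13, 3.87 and 2.65 FPKM in max2 mock (log2 difference -1.23 ± 0.24 SE, edgeR adjusted p = 0.0125). WRKY18, a defence transcription factor, had 6.38, 6.44, 7.20 and 7.96 FPKM in d14 mock and 10.6, 11.2, 11.7 and 11.1 FPKM in max2 mock (log2 difference -0.67 ± 0.11 SE, edgeR adjusted p = 0.00908). Neither overlapped between the mutants, and both were called under each of the 10 settings and without any 1 library. CYP71A12, a P450 of indolic defence compounds, had 7.47, 5.75, 8.25 and 5.61 FPKM in d14 mock and 13.5, 11.7, 22.7 and 8.92 FPKM in max2 mock (edgeR adjusted p = 0.0221). That call was lost without d14 mock replicate 1, 2 or 4 or max2 mock replicate 3. BGLU23, the abundant root β-glucosidase of endoplasmic reticulum bodies, had 415, 415, 405 and 376 FPKM in d14 mock and 774, 606, 836 and 525 FPKM in max2 mock (log2 difference -0.77 ± 0.15 SE, edgeR adjusted p = 0.0125). It was the only call among 4 tested genes of glucosinolate metabolism (25% lower, against 13.2% over all tested genes).

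Xenobiotic detoxification, the list with the most tested genes, had shares near those of all tested genes. Of its 32 tested genes, 22 (68.8%, against 64.3%) were bounded within 2-fold, 3 (9.38%, against 13.2%) were lower and 0 (against 4.31%) higher in d14, with a median of -0.15 against -0.12. Summed over the list, the level was 419 to 445 FPKM in the d14 mock libraries and 434 to 476 FPKM in the max2 mock libraries. GSTU19, the list's most abundant glutathione S-transferase, had 133, 138, 134 and 136 FPKM in d14 mock and 150, 123, 157 and 159 FPKM in max2 mock. UGT73B4, a glycosyltransferase, had 0.745, 0.629, 0.579 and 0.972 FPKM in d14 mock and 1.52, 1.74, 1.62 and 1.45 FPKM in max2 mock (log2 difference -1.11 ± 0.20 SE, edgeR adjusted p = 0.00982). Its call held under each of the 10 settings and without any 1 library. The calls of GSTF6, another glutathione S-transferase, and ABCC1, a vacuolar transporter of conjugates, were both lost under TMM scaling, DESeq2's own size factors and all 16 libraries in 1 fit, and that of GSTF6 also under limma and with the replicate block. They were also lost without d14 mock replicate 1, 2 or 4 or max2 mock replicate 2 or 3, and GSTF6 without d14 mock replicate 3. DESeq2 with library totals called 7 lower and 2 higher of the 32, against 223 lower and 82 higher of all 1206 tested genes. With its own size factors it called 2 lower and 2 higher of the 32, against 133 lower and 117 higher of all.

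Suberin is the lipid barrier of the endodermis. Of 11 tested genes of that list, 10 (90.9%) were bounded within 2-fold, against 64.3% of all tested genes, and 1 (9.09%, against 13.2%) was lower in d14. CYP86B1, a fatty acid hydroxylase of suberin synthesis, had 4.30, 4.5, 4.86 and 4.40 FPKM in d14 mock and 4.96, 4.57, 4.86 and 4.61 FPKM in max2 mock. FAR5, a fatty acyl reductase of the same pathway, was the only call. It had 2.32, 2.43, 2.28 and 2.51 FPKM in d14 mock and 3.88, 3.49, 3.97 and 3.22 FPKM in max2 mock (log2 difference -0.61 ± 0.12 SE, edgeR adjusted p = 0.0125). All 11 suberin genes had a negative difference with library totals, and 7 of 11 had one under TMM scaling. Each of the 5 tested cytokinin genes was bounded within 2-fold, against 64.3% of all tested genes, and none was called, against 17.5%. IPT5, which makes the cytokinin precursor, had 44.4, 55.5, 46.9 and 77.1 FPKM in d14 mock and 62.5, 68.8, 65.8 and 69.8 FPKM in max2 mock.

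**Figure D2:**
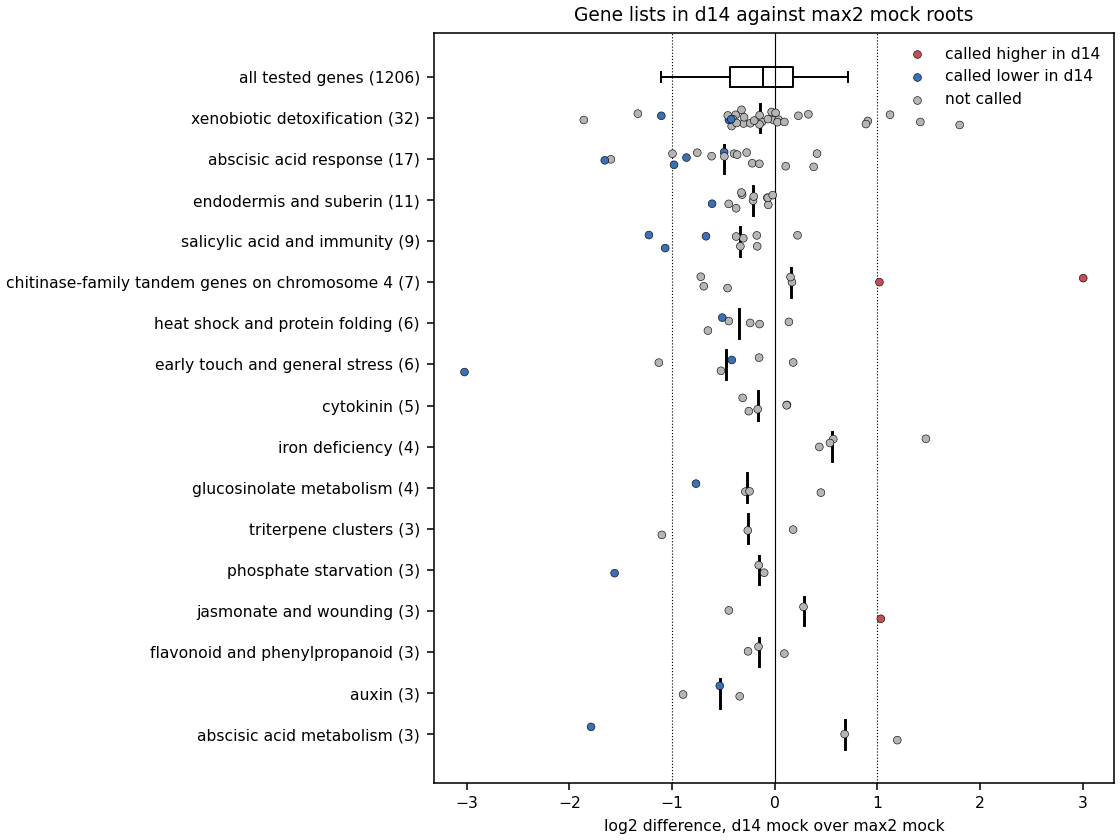
Log2 difference of d14 mock over max2 mock (horizontal) for each tested gene of the lists with 3 or more tested genes, with the number tested in brackets, a black bar at each median and dotted lines at a 2-fold difference. The box shows the quartiles of all 1206 tested genes and its whiskers the central 90%. The 4 called genes of the abscisic acid response lie left of 0, with KIN1 alone among them beyond the dotted line. The 5 cytokinin genes lie between the dotted lines, on both sides of 0.

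Of the strigolactone and karrikin genes looked up, 2 of 27 were in the shared set and neither was called. HB21, a homeodomain protein downstream of the pathway in axillary buds, had 0.512, 0.488, 0.329 and 0.461 FPKM in d14 mock and 0.701, 0.623, 0.494 and 0.914 FPKM in max2 mock (log2 difference -0.62 ± 0.27 SE, edgeR adjusted p = 0.137). Beside Col-0 mock, at 0.768 to 1.25 FPKM, HB21 was lower in d14 (edgeR adjusted p = 0.0036) and did not pass the test in max2 (edgeR adjusted p = 0.083). HB40, its relative, had 0.250, 0.568, 0.263 and 0.249 FPKM in d14 mock and 0.265, 0.443, 0.299 and 0.335 FPKM in max2 mock (edgeR adjusted p = 0.96).

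CHX17, a cation/proton exchanger of roots, had the largest difference among the genes named by size. It had 2.08, 3.48, 2.19 and 2.71 FPKM in d14 mock, against 3.88, 17.8, 14.9 and 15.4 FPKM in max2 mock. The log2 difference was -2.31 ± 0.38 SE (edgeR adjusted p = 0.00876), and max2 mock replicate 1 was close to the d14 values. NRT2.1, the high-affinity nitrate transporter, had 5.43, 13.9, 5.41 and 4.87 FPKM in d14 mock and 22.6, 10.7, 14.1 and 41.7 FPKM in max2 mock. The ranges overlapped through d14 mock replicate 2, and the call (edgeR adjusted p = 0.0365) was lost with the replicate block, with limma on log2(FPKM + 1) and without d14 mock replicate 1, 3 or 4 or max2 mock replicate 3 or 4.

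In all, 30 genes were called under each of the 10 settings and without any 1 library, 3 of them higher and 27 lower in d14. Those not named by the earlier rule were added after their values were seen. Among them, ABCG30 and ABCB15 are ABC transporters. ABCG30 had 0.816, 0.826, 1.04 and 1.12 FPKM in d14 mock and 1.76, 2.16, 2.61 and 1.7 FPKM in max2 mock, and ABCB15 had 4.85 to 6.00 FPKM in d14 mock and 7.86 to 11.2 FPKM in max2 mock. ABCC4, a further family member, had 1.72 to 2.2 FPKM in d14 mock and 2.79 to 3.11 FPKM in max2 mock. Of the 22 tested genes named as ABC transporters, 4 (18.18%) were lower and 0 higher, against 13.2% lower over all tested genes.

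DTX35, an efflux carrier, had 2.18 to 2.45 FPKM in d14 mock and 3.09 to 4.52 FPKM in max2 mock. AAT1, an amino acid transporter, had 0.589 to 0.726 FPKM in d14 mock and 0.991 to 1.71 FPKM in max2 mock. GLR2.2, a glutamate receptor-like channel, had 29.5, 31.1, 36.1 and 28.3 FPKM in d14 mock and 41.1, 65.0, 62.8 and 54.1 FPKM in max2 mock (log2 difference -0.83 ± 0.15 SE, edgeR adjusted p = 0.01). Each of these stable calls had non-overlapping groups.

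The other stable lower calls had varied annotations. MLP328, an abundant protein of the major latex protein family, had 271, 270, 237 and 251 FPKM in d14 mock and 424, 563, 535 and 558 FPKM in max2 mock (log2 difference -1.01 ± 0.12 SE, edgeR adjusted p = 0.00292). AT5G59540, a 2-oxoglutarate- and iron-dependent oxygenase, had 0.914, 1.16, 1.04 and 1.04 FPKM in d14 mock and 2.62, 3.37, 3.04 and 2.15 FPKM in max2 mock (log2 difference -1.43 ± 0.18 SE, edgeR adjusted p = 0.00292). SUS3, a sucrose synthase, had 0.0992, 0.0852, 0.0385 and 0.155 FPKM in d14 mock and 0.236, 0.544, 0.352 and 0.481 FPKM in max2 mock. ANNAT7, an annexin, had 2.24 to 3.06 FPKM in d14 mock and 4.17 to 6.62 FPKM in max2 mock. AT2G37870, of the lipid-transfer protein family, had 2.7 to 3.92 FPKM in d14 mock and 6.20 to 8.95 FPKM in max2 mock. AT5G39080, an acyltransferase family member, had 1.63 to 2.61 FPKM in d14 mock and 4.72 to 7.51 FPKM in max2 mock. AT4G25433, a LysM-domain protein, had 0.487 to 0.993 FPKM in d14 mock and 1.7 to 2.97 FPKM in max2 mock.

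Other large differences on the lower side were less stable. SOUL-1, a heme-binding family protein, had 0.275, 0.137, 0.0724 and 0.534 FPKM in d14 mock and 0.929, 1.65, 1.60 and 0.578 FPKM in max2 mock, and its call was lost without d14 mock replicate 1 or 2 or max2 mock replicate 2 or 3. PLAT3, of the lipase and lipoxygenase domain family, had 1.67, 2.87, 2.36 and 3.00 FPKM in d14 mock and 3.25, 11.2, 11.7 and 5.68 FPKM in max2 mock. Its call was lost without d14 mock replicate 1 or 2 or max2 mock replicate 3. RNS1, an extracellular ribonuclease, had 0.0946 to 0.242 FPKM in d14 mock and 0.261 to 0.678 FPKM in max2 mock, and lost its call with limma on log2(FPKM + 1) and without d14 mock replicate 1, 2 or 3 or max2 mock replicate 1, 3 or 4. BCH1, a hydroxylase of carotene, had 0.662 to 1.03 FPKM in d14 mock and 1.13 to 1.62 FPKM in max2 mock. Its call was lost under TMM scaling, with the replicate block, and without any 1 of 6 libraries (d14 mock replicates 1, 2 and 3 and max2 mock replicates 2, 3 and 4).

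Genes higher in d14 were fewer. AT5G42200, a RING-type ubiquitin ligase family member, had 13.9, 10.4, 11.5 and 10.8 FPKM in d14 mock and 6.64, 6.85, 5.95 and 6.46 FPKM in max2 mock (log2 difference 0.84 ± 0.13 SE, edgeR adjusted p = 0.0068). Col-0 mock had 13.2, 10.7, 11.9 and 12.3 FPKM, so that d14 was at the wild-type level (log2 -0.05) and max2 below it (log2 -0.89, edgeR adjusted p = 0.00026). NUDX13, a nudix hydrolase, had 27.4, 28.9, 24.7 and 27.4 FPKM in d14 mock and 19.9, 15.3, 17.3 and 16.6 FPKM in max2 mock (log2 difference 0.65 ± 0.12 SE, edgeR adjusted p = 0.00976). It too was below Col-0 mock in max2 (log2 -0.53, edgeR adjusted p = 0.0055) and not distinguishable from it in d14 (log2 0.11, edgeR adjusted p = 0.53).

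The third stable higher call was AT4G19800, a chitinase-family gene of a tandem cluster on chromosome 4. It had 65, 70, 112 and 63 counts in d14 mock and 18, 0, 3 and 12 counts in max2 mock (log2 difference 3.00 ± 0.59 SE, edgeR adjusted p = 0.0125). Col-0 mock, at 0.439 to 1.3 FPKM, was close to d14 mock, at 0.713 to 1.42 FPKM. Its neighbour AT4G19770 had 2.27, 3.39, 2.57 and 3.25 FPKM in d14 mock and 1.67, 1.23, 1.32 and 1.43 FPKM in max2 mock. The call of AT4G19770 was lost with all 16 libraries in 1 fit. The other 5 tested genes of the cluster were not called, with differences from -0.72 to 0.17. The 2 called were 28.6% of the 7 tested, against 4.31% higher over all tested genes. Its members are close copies, so reads may have been split among them.

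Of the remaining genes named by size on the higher side, UMAMIT35, of a family of amino acid exporters, had 6.90, 9.18, 5.65 and 6.64 FPKM in d14 mock and 4.32, 1.37, 1.74 and 4.68 FPKM in max2 mock. AT5G07995, listed as other RNA, had 7.35, 13.3, 6.25 and 7.91 FPKM in d14 mock and 3.5, 1.44, 1.13 and 4.56 FPKM in max2 mock. IKU2, a leucine-rich repeat kinase known from seed growth, had 0.932, 1.46, 1.03 and 0.826 FPKM in d14 mock and 0.613, 0.393, 0.417 and 0.613 FPKM in max2 mock. None of the 3 overlapped between the mutants. Their calls held under each of the 10 settings but were lost without d14 mock replicate 2 or max2 mock replicate 3. The call of UMAMIT35 was lost without d14 mock replicate 1, 3 or 4 or max2 mock replicate 2 as well, and that of AT5G07995 without d14 mock replicate 1 or max2 mock replicate 2. JAZ7, a jasmonate repressor protein, had 1.23, 2.65, 1.88 and 3.22 FPKM in d14 mock and 1.26, 0.826, 1.09 and 1.19 FPKM in max2 mock, and HRE1, an ethylene response factor of low oxygen, had 255, 299, 189 and 262 FPKM in d14 mock and 175, 190, 180 and 191 FPKM in max2 mock. Both pairs of ranges overlapped, and both calls were lost under limma and with the replicate block, that of HRE1 also with all 16 libraries in 1 fit. The call of JAZ7 was also lost without d14 mock replicate 2, 3 or 4 or max2 mock replicate 2, 3 or 4, and that of HRE1 without any 1 library other than d14 mock replicate 3.

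The other 6 genes named by size on the higher side were AT5G24640, AT1G66860, AT1G07680, AT5G23903, AT5G39630 and AT1G06830, with log2 differences of 1.00 to 1.74 and non-overlapping groups. Their annotations name a family or no function, and each lost its call without d14 mock replicate 2. XTH24, a xyloglucan-modifying enzyme of the cell wall, had 86.5, 65.2, 97.2 and 87.7 FPKM in d14 mock and 34.7, 62.0, 70.6 and 46.6 FPKM in max2 mock, and its call (edgeR adjusted p = 0.0489) was lost without any 1 of the 8 libraries, under limma and with all 16 libraries in 1 fit. On the lower side, GH3.17, which conjugates auxin to an amino acid, had 14.4, 12.5, 13.0 and 12 FPKM in d14 mock and 17.1, 18.7, 19.3 and 20.1 FPKM in max2 mock (edgeR adjusted p = 0.0125), a call lost without d14 mock replicate 2. PPC3, a phosphoenolpyruvate carboxylase, had 18.5, 19.2, 18.17 and 18.5 FPKM in d14 mock and 25.0, 24.0, 24.2 and 29.7 FPKM in max2 mock (edgeR adjusted p = 0.0194), a call lost without d14 mock replicate 1 or 2.

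The most abundant genes bounded within 2-fold show how a difference can be detected and still be small. AT4G39675, of unknown function, averaged 4360 FPKM in d14 mock and 3133 FPKM in max2 mock and was higher in d14 by 1.39-fold (log2 difference 0.48 ± 0.13 SE, edgeR adjusted p = 0.0331). AT5G26280, of the TRAF-like family, GSTF14, a glutathione S-transferase, and GLP9, a germin-like protein, were lower in d14 with log2 differences of -0.49, -0.54 and -0.59. AT5G19890, a peroxidase, had 959 to 1278 FPKM in d14 mock and 1270 to 1388 FPKM in max2 mock and was not called (edgeR adjusted p = 0.323). Of the 4 called, AT5G26280, GSTF14 and GLP9 lost their calls under TMM scaling, GSTF14 and GLP9 also with all 16 libraries in 1 fit, and GSTF14 with the replicate block and DESeq2's own size factors. All 4 lost them under limma and without d14 mock replicate 1, 2 or 4 or max2 mock replicate 2 or 3.

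**Figure D3:**
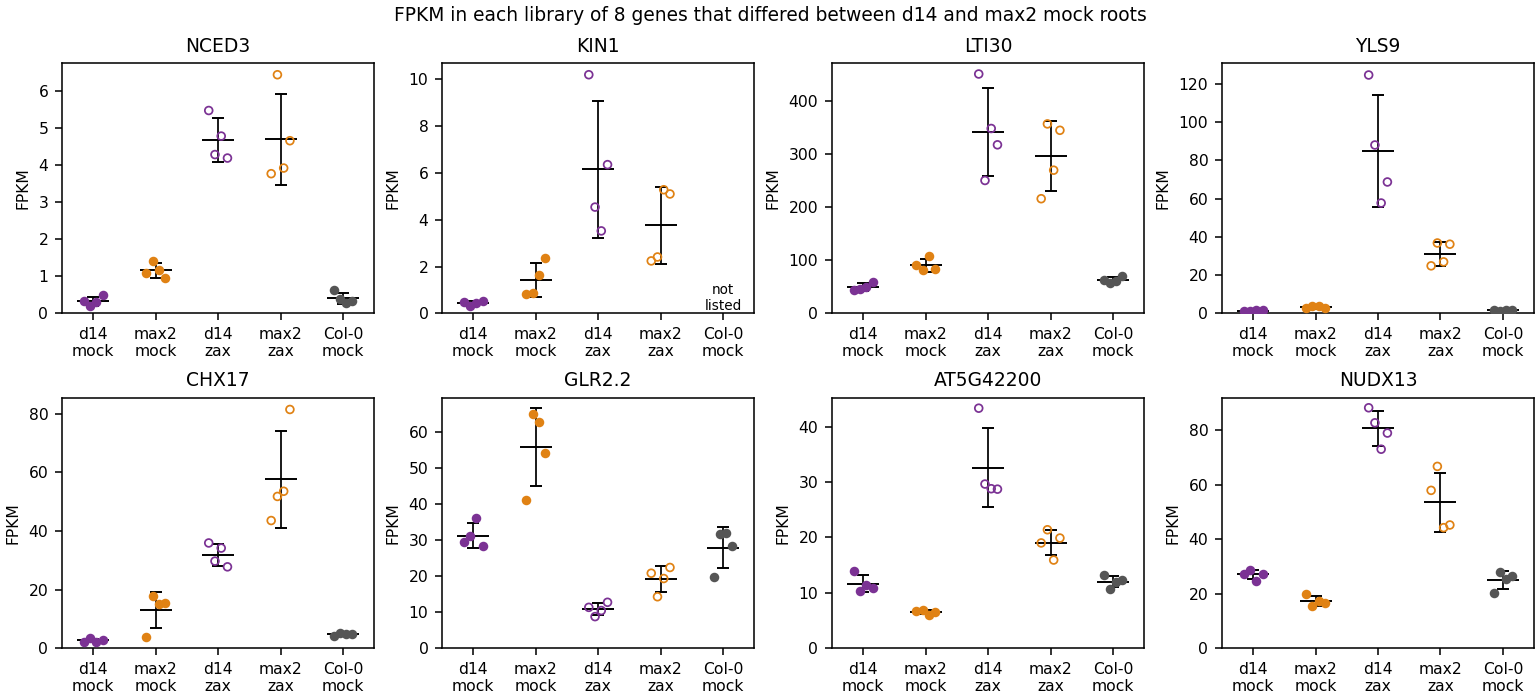
FPKM of 8 called genes in each library (points), with the mean and SD of 4 libraries (bar and whiskers), for d14 mock, max2 mock, d14 zaxinone (zax), max2 zaxinone and Col-0 mock from left to right; filled points are mock and open points zaxinone. The d14 and max2 mock groups do not overlap in any of the 8 panels, and NCED3 had 4.19 to 5.48 FPKM in d14 zaxinone and 3.77 to 6.44 FPKM in max2 zaxinone.

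Set beside Col-0 mock, some lower calls were above Col-0 in max2 and others were below it in d14. Of the shared genes, 973 were also listed for Col-0, and 966 of these passed the count minimum in a fit of the 12 mock libraries. It called 307 genes (31.8%) between d14 and Col-0, 159 (16.5%) higher and 148 (15.3%) lower in d14. Between max2 and Col-0 it called 346 (35.8%), 243 (25.2%) higher and 103 (10.7%) lower in max2. These 2 comparisons share the Col-0 libraries. The genes followed next were called between the same d14 and max2 mock libraries. Choosing them so favours Col-0 differences of the called direction, and their counts and medians are a description. Of the 136 genes lower in d14 than in max2 and listed for Col-0, 72 were above Col-0 in max2 and 46 were below Col-0 in d14. By number, 60 differed from Col-0 in max2 and not in d14, 40 in d14 and not in max2, 15 in both and 21 in neither. Their median log2 difference from Col-0 was -0.28 in d14 and 0.51 in max2, against 0.06 and 0.23 over all genes of the fit. Of the 42 genes higher in d14, 24 were above Col-0 in d14 and 12 below Col-0 in max2. Under TMM scaling the split of all max2 calls against Col-0 was 146 higher and 158 lower. The counts for the 136 and the 42 genes are given with library totals only. The count for d14 fell to 178 without d14 mock replicate 2 and to 180 without Col-0 mock replicate 4.

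The genotype difference was also measured in the zaxinone libraries. The genes were listed by their zaxinone response in both mutants, so the zaxinone libraries are part of what selected them and the counts shared with mock are a description. Between d14 zaxinone and max2 zaxinone 181 of 1202 tested genes (15.1%) were called, 103 (8.57%) higher and 78 (6.49%) lower in d14. Of 207 genes called in mock and tested there, 136 (65.7%) had the same sign, against 55.8% of all 1188 genes tested in both. Only 39 were called again with the same sign, which was 18.8% of the 207 and 21.5% of the 181, and 10 were called with the opposite sign. Of the 39, 34 were lower and 5 higher in d14. The zaxinone count fell to 33, 30 and 78 without max2 zaxinone replicates 1, 3 and 4 and to 110 without d14 zaxinone replicate 4, and the replicate block gave 73.

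The 34 genes lower in both media included CHX17, PLAT3, GLR2.2 and RNS1. AT1G33840, of the LURP-one-like family, had 112, 120, 112 and 125 FPKM in d14 mock and 138, 243, 209 and 219 FPKM in max2 mock. With zaxinone it had 17.8, 21.7, 20.1 and 23.2 FPKM in d14 and 32.6, 23.1, 33.4 and 43.7 FPKM in max2. CYP71B7, a P450, had 93.1 to 117 FPKM in d14 mock and 124 to 221 FPKM in max2 mock, and 25.1 to 32.7 FPKM in d14 zaxinone and 50.3 to 68.6 FPKM in max2 zaxinone. AT5G37450, a leucine-rich repeat kinase, had 27.8 to 34.8 FPKM in d14 mock and 38.4 to 72.6 FPKM in max2 mock, and 6.83 to 9.26 FPKM in d14 zaxinone and 11.6 to 23.5 FPKM in max2 zaxinone. By annotation, chosen after the values were seen, 8 of the 39 had the word kinase in their description, kinase-related families included. Of all 1206 tested genes, 66 had it. Of those 66, 14 (21.2%) were lower and 1 was higher in d14 mock, against 13.2% lower and 4.31% higher over all tested genes. AT5G42200, NUDX13 and JAZ7 were among the 5 genes higher in both.

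**Figure D4:**
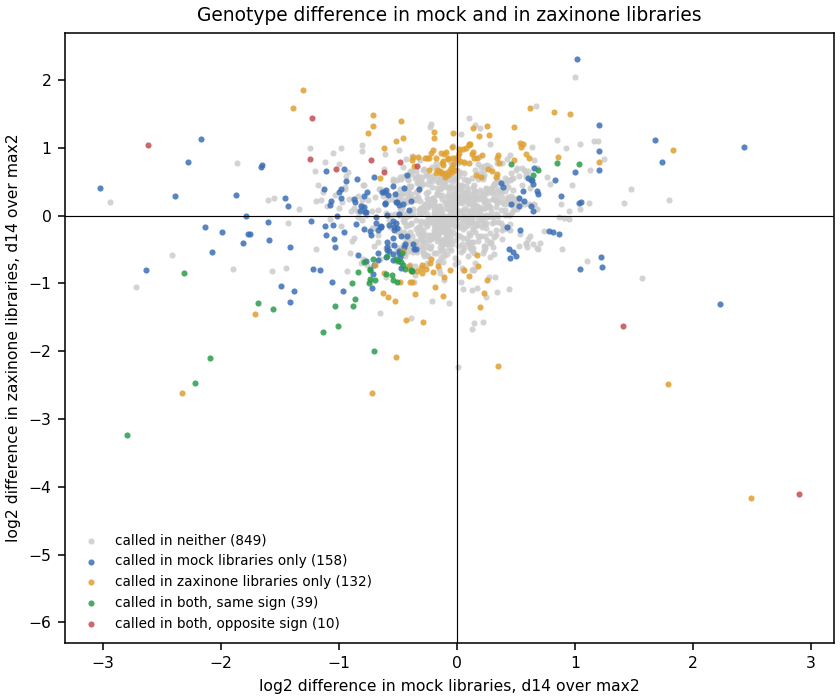
Log2 difference of d14 over max2 in mock libraries (horizontal) and in zaxinone libraries (vertical) for the 1188 genes tested in both, coloured by where the gene was called. The 39 genes called in both with the same sign lie mostly in the lower left, and the 10 called with opposite signs lie in the upper left and lower right.

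Many basal differences were not seen with zaxinone. The change of the genotype difference between media was tested as an interaction over 16 libraries, and 145 of 1220 genes (11.9%) were called. The difference was higher with zaxinone in 118 (9.67%) and lower in 27 (2.21%). TMM scaling gave 96 and 45, and DESeq2's own size factors 76 and 109, so the direction of this split depends on the scaling. The count was 67, 89 and 68 without d14 mock replicates 1 and 3 and max2 mock replicate 3, and 64 and 78 without max2 zaxinone replicates 1 and 3. Of the genes lower in d14 mock, 48 of 159 had a called interaction, and of those higher 9 of 52. The interaction shares the mock libraries, so these counts are a description.

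NCED3 had 5.48, 4.29, 4.79 and 4.19 FPKM in d14 zaxinone and 3.77, 6.44, 3.92 and 4.66 FPKM in max2 zaxinone, and its interaction passed the test (log2 1.79, edgeR adjusted p = 0.0058). KIN1, LTI30 and RD29A also had a called interaction, with 250 to 451 FPKM of LTI30 in d14 zaxinone and 216 to 357 FPKM in max2 zaxinone. YLS9 reversed, with 125, 88.0, 57.7 and 68.7 FPKM in d14 zaxinone and 24.9, 36.8, 27 and 36.2 FPKM in max2 zaxinone (edgeR adjusted p = 0.0088). AT4G19800 had 0 FPKM in all 8 zaxinone libraries, so no zaxinone difference is given for it.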

How the data were processed

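Reads were processed by the authors. The submitters' processing notes name HISAT2 and StringTie without versions. The genome build, the counting tool and the strand setting are not stated in the labels or headers, so reads of antisense partners cannot be told apart. Per the file headers, each genotype's deposited table holds raw counts, normalized counts (a signal, the count divided by 1 factor per library), FPKM, and the authors' log2 fold change, p-value and adjusted p-value of zaxinone against mock. Every listed gene passed the authors' adjusted p-value of 0.05 and changed 2-fold or more. Factors were set within each table, so library totals were recovered from count, FPKM and exon length and used for scaling.

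Genes with at least 10 counts over the libraries were fitted with edgeR 4.0.16 in R 4.3.3, with Benjamini-Hochberg adjustment over all tested genes. DESeq2 1.42.0, limma 3.58.1 on log2(FPKM + 0.1) or log2(FPKM + 1), TMM, the filters, the replicate block and left-out libraries were alternatives. In data simulated for d14 mock over max2 mock (1205 genes), the fit recovered 37.3% of 1.5-fold, 79.1% of 2-fold and 92.4% of 4-fold changes, and 6.71% of calls fell on unchanged genes. The simulation drew each gene on its own, without deviations that many genes of a library share. Its shares therefore do not measure recovery or false calls in the real libraries. Genes were named by rule: the 10 largest called differences in each direction among non-overlapping genes with at least 1 FPKM in a group, up to 4 called per gene list, each strigolactone gene, and the 5 most abundant bounded genes. The 18 further genes called under every alternative, the genes shown as examples and the kinase and ABC transporter counts were chosen after their values were seen. Members and the 28 gene lists were chosen with earlier results of these data known.

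Deviations of same-numbered d14 mock and max2 mock libraries correlated at r of 0.14, -0.06, 0.25 and -0.17, and those of unlike-numbered libraries at -0.28 to 0.26. For d14 mock and Col-0 mock the same-numbered values were 0.30, 0.31, 0.28 and 0.23, and the unlike-numbered ones -0.37 to 0.27. With 4 libraries in a group, these values cannot settle whether the numbers mark pairs. With the block 329 genes were called between d14 mock and Col-0 mock in place of 307.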

Additional observations from a re-analysis of the deposited data

Results flagged for a closer look

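For 24 of the 68 named genes the d14 over max2 difference in zaxinone libraries differed from that in mock libraries by the interaction test. Over all genes 145 of 1220 (11.9%) did. The change, as log2 in zaxinone minus log2 in mock, was positive for CBF3 (3.42), SOUL-1 (3.29), YLS9 (2.66), AT4G25433 (2.39), KIN1 (2.37), AT2G37870 (2.08), NCED3 (1.79), AT5G59540 (1.58), CHX17 (1.46), RD29A (1.38), CYP71A12 (1.29), BCH1 (1.26), AT1G30700 (1.15), E12A11 (1.11), LTI30 (1.06), ZAT12 (1.01), ABCG30 (0.96), DTX35 (0.95), UGT73B4 (0.82) and FAR5 (0.80). It was negative for AT4G39675 (-1.02), HRE1 (-1.07), UMAMIT35 (-1.84) and AT1G66860 (-1.99). The first 20 were lower in d14 mock and the other 4 were higher there. Named genes were mostly chosen by their mock difference and the interaction shares those libraries, so the count and the signs are a description. The CBF3 value rests on 3 counts in d14 mock and depends on the fitted prior.

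In 5 groups of 4 libraries 1 library lay far from the others. PPC3 had 29.7 FPKM in max2 mock replicate 4 and 24.0 to 25.0 FPKM in the other max2 mock libraries. DREB2A had 5.36 FPKM in max2 mock replicate 4 and 6.07 to 6.14 FPKM in the others. NRT2.1 had 13.9 FPKM in d14 mock replicate 2 and 4.87 to 5.43 FPKM in the others. HB40 had 0.568 FPKM in d14 mock replicate 2 and 0.249 to 0.263 FPKM in the others. GLP9 had 787 FPKM in max2 mock replicate 1 and 1374 to 1435 FPKM in the others. The check covered 136 groups, of which chance would flag about 5%.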

How the results depend on the processing

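The number of genes bounded within 2-fold stayed within 1.5 times its value under every alternative edgeR fit. It was not computed for the DESeq2 and limma alternatives. The 211 calls between d14 mock and max2 mock became 133 with limma on log2(FPKM + 0.1), 120 with limma on log2(FPKM + 1) and 68 with an added 2-fold threshold. Leaving out 1 library gave 36 to 287 calls there, 30 to 224 between the zaxinone groups, 64 to 171 for the interaction, 178 to 334 for d14 mock over Col-0 mock and 265 to 355 for max2 mock over Col-0 mock. With the replicate number as a block, the 181 calls between d14 zaxinone and max2 zaxinone became 73. The calls between d14 mock and max2 mock were 152 with the block and those of the interaction 110, both within 1.5 times the counts without it, as were the counts of each mutant over Col-0 mock. Whether the replicate numbers mark pairs of libraries is not settled by these data.

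Of the 68 named genes, HB40 alone changed sign, from a log2 difference of -0.03 to 0.093 with DESeq2's own size factors and 0.076 with TMM. With 1 library left out its value ranged from -0.39 (without d14 mock replicate 2) to 0.12 (without max2 mock replicate 2), and it was also positive without d14 mock replicates 1, 3 and 4. HB40 was not called in any of them. Of the 68, 65 were called, and 18 of these were added because their calls held under every alternative. Over the alternatives with all 8 libraries 22 named genes lost their call in at least 1, and with 1 library left out 34 did. The 18 added genes could not be among them. The cause of the losses was not tested. Of the 302 genes neither called nor bounded, 229 averaged under 1 FPKM in both mutants, as did 350 of the 1206 tested genes; the parts of depth and of replicate spread in this were not tested.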
